A study of Mus musculus with 9 samples.

Results

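The proteins that harden the outermost skin were followed here through the 21 late cornified envelope (LCE) genes of the mouse, the 7 filaggrin-type genes and 10 partner genes. The 38 genes were chosen by symbol and protein-coding status from a table of 54532 genes, of which 22046 were protein coding. They comprise 14 LCE1, 6 LCE3 and 1 LCE6 genes, the S100 fused-type genes Flg, Flg2, Hrnr, Rptn, Tchh, Tchhl1 and Crnn, the envelope genes Ivl, Lor, Lelp1, Crct1 and Kprp, the transglutaminases Tgm1, Tgm3 and Tgm5, and the plakins Evpl and Ppl. In the mm10 coordinates of the deposited table, 33 of them lie within 1.39 Mb of chromosome 3, at chr3:92080271-93471980, the stretch known as the epidermal differentiation complex.

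The study sequenced total RNA of mouse skin biopsies to examine how nitrate affects gene expression in skin exposed to bleomycin, with 3 groups and 3 libraries in each. The control group was healthy skin, the bleomycin group received bleomycin, a DNA-breaking antibiotic that causes fibrosis in mouse skin resembling that of systemic sclerosis, and the third group, called nitrate below, received bleomycin together with nitrate applied to the skin. All 9 libraries are labelled as wild type. Strain, age, doses, durations, the depth of the biopsies and the number of animals behind each library were not stated in the sources used here, and p-values reflect the spread among these 9 libraries alone, which may be technical. A biopsy holds many cell types, so a higher value can come from more cells of a type or from more RNA per cell, and these cannot be told apart.

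Keratinocytes that reach the skin surface replace their plasma membrane with the cornified envelope, a shell of proteins joined by transglutaminases. Involucrin and the plakins form the early scaffold beneath the membrane, and loricrin, small proline-rich proteins and LCE proteins reinforce it later. The S100 fused-type proteins carry a calcium-binding start and long repeats; profilaggrin, the product of Flg, is cut into filaggrin monomers that bundle keratin filaments and then break down into moisture-holding amino acids, and trichohyalin, the product of Tchh, hardens the inner root sheath of the hair follicle. In human skin, the LCE3 genes are known to be low in intact epidermis and to be induced by injury of the barrier.

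The deposited unit was FPKM, a read count scaled to the gene's length and the library's size, which allows levels of different genes to be compared. Whole reads worked back from it summed to 15804050 to 18352592 per library. Differences below are between group means of log2(FPKM + 1) ± standard error, which understates the change of genes near 0. A gene passed the test at a Benjamini-Hochberg adjusted p under 0.05 by limma over 14645 genes with at least 1 FPKM in at least 3 libraries. Of the 38 genes 37 were tested; Lelp1 was listed at 0 in 8 of 9 libraries and at 0.198 FPKM in bleomycin library 3. The mucosal keratins Krt4 and Krt13, markers of the lining of mouth and oesophagus, were below the filter, and suprabasal keratins of epidermis were present in every library, with a summed level of 1437 to 2620 FPKM in control, 2295 to 4296 in bleomycin and 1515 to 4441 in nitrate.

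The DNA just before the transcription start of the LCE3 genes is shown because all 6 genes rose in bleomycin skin. The windows hold the 110 bases upstream of each start, from RefSeq on GRCm38.p6, written in the direction of transcription. Capitals mark the 8-letter word CATGCTTG and the TATA-like word ATAAAA. Lce3c lies at chr3:92944376-92944485 (plus strand), Lce3d at chr3:92957280-92957389 (plus strand), Lce3e at chr3:92966951-92967060 (plus strand), Lce3f at chr3:92992107-92992216 (plus strand), Lce3a at chr3:92926231-92926340 (minus strand) and Lce3b at chr3:92932869-92932978 (plus strand).
Lce3c: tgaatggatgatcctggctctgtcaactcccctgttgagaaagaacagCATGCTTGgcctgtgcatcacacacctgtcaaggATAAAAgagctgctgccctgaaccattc
Lce3d: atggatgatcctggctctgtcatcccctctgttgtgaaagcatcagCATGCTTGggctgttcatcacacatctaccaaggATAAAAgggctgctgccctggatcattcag
Lce3e: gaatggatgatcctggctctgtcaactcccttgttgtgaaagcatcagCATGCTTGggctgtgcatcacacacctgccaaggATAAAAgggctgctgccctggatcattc
Lce3f: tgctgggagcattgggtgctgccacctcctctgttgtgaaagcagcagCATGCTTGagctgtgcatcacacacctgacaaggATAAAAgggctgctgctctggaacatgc
Lce3a: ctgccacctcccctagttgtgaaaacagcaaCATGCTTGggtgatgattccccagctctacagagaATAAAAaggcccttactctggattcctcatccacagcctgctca
Lce3b: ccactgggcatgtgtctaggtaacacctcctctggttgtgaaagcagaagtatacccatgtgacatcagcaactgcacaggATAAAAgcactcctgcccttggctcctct
CATGCTTG was found, searching both strands, in 5 of these 6 windows, in 0 of the 13 LCE1 windows and in 0.304% of the 32851 windows of all genes. Lce3b has no such word in its window. ATAAAA was found in 6 of 6 LCE3 windows, in 12 of 13 LCE1 windows and in 7.68% of all windows.

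The LCE1 windows below are of genes that responded differently, and in them capitals mark CTGTCTCAC and ATAAAA. Lce1e lies at chr3:92709075-92709184 (minus strand), Lce1g at chr3:92752339-92752448 (minus strand), Lce1b at chr3:92656927-92657036 (minus strand) and Lce1m at chr3:93019062-93019171 (minus strand).
Lce1e: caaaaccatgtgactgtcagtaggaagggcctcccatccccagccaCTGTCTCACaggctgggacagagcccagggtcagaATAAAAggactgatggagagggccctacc
Lce1g: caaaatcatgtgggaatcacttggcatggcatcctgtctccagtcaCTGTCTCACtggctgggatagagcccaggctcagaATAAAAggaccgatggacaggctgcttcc
Lce1b: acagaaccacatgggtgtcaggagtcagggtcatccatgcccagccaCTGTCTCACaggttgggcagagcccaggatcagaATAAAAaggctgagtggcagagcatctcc
Lce1m: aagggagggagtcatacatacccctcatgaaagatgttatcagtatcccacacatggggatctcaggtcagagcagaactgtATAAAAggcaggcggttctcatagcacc
CTGTCTCAC was found in 9 of 13 LCE1 windows, in 0 of 6 LCE3 windows and in 0.143% of all windows. Lce1e and Lce1g, which rose in bleomycin skin, hold it, and so does Lce1b, which did not pass the test. The window of Lce1k, which also rose, lacks it. The Lce1m window holds ATAAAA and lacks CTGTCTCAC. In the filaggrin-type windows, capitals mark TGANTCA on either strand. Flg lies at chr3:93273436-93273545 (plus strand), Flg2 at chr3:93197163-93197272 (plus strand), Rptn at chr3:93393589-93393698 (plus strand) and Hrnr at chr3:93319639-93319748 (plus strand).
Flg: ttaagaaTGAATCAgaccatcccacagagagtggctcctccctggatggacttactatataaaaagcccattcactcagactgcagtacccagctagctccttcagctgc
Flg2: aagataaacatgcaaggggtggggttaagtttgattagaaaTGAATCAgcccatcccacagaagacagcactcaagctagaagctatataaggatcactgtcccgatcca
Rptn: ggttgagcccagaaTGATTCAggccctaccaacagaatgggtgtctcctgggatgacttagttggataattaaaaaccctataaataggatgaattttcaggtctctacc
Hrnr: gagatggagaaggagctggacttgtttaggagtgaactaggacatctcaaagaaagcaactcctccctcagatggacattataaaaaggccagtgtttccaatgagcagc
TGANTCA was found in 5 of 7 windows of the S100 fused-type genes, namely those of Crnn, Flg, Flg2, Rptn and Tchhl1, and in 3.08% of all windows. It is present in Flg and Rptn, which rose in bleomycin skin, and in Flg2, which fell. The words were picked after the windows had been read, so these counts describe the letters, and no binding was measured. Of the 38 genes 33 had an entry, with none for Crct1, Evpl, Kprp, Lce1f and Ppl.

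Bleomycin skin was compared with control skin to see which envelope genes differ in the model itself. Of the 37 genes tested, 16 were higher and 2 were lower in bleomycin skin. Over all genes tested, 4.74% were higher and 3.69% were lower, or 8.43% in either direction. The genes that rose were all 6 LCE3 genes, Lce1e, Lce1f, Lce1g, Lce1i, Lce1j, Lce1k, Flg, Rptn, Tgm1 and Tgm3. Those that fell were Lce1m and Flg2. Lce3a and Lce3b entered the test through the bleomycin libraries alone, which fixed their direction, and without them 14 of 35 were higher. The median difference over the 37 genes was 1.27, against 0.01 over all genes tested. In 21 genes every bleomycin library lay above every control library, where 18.4% of all genes did so, and in 2 every bleomycin library lay below, where 17.3% of all genes did so. The 21 and the median include Lce3a and Lce3b, whose order was fixed by the filter.

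**Figure D1:**
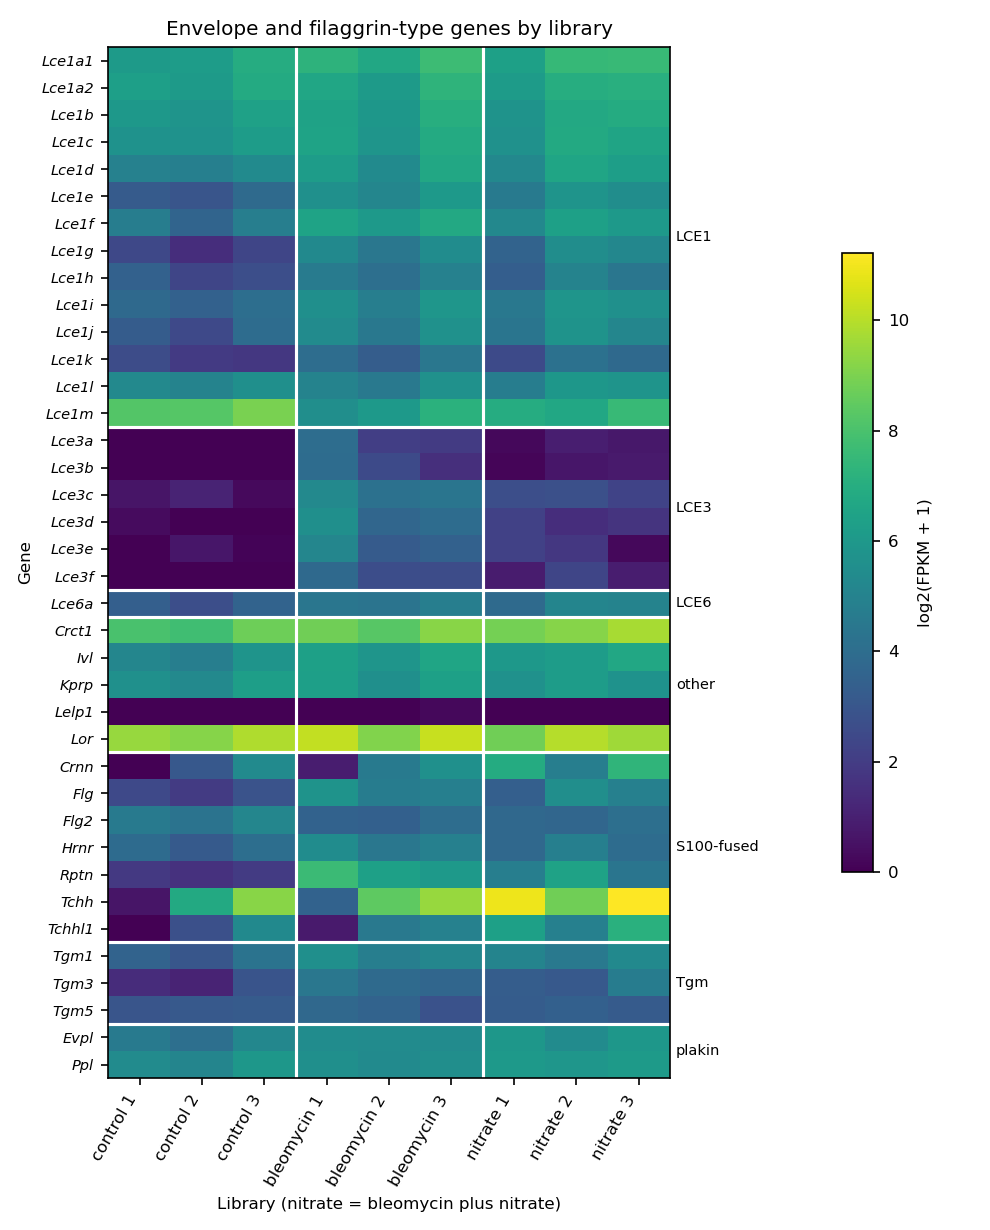
Level of each of the 38 genes, as log2(FPKM + 1) by colour, in the 9 libraries (columns), with genes grouped by type (rows). The LCE3 rows are near 0 in control, highest in bleomycin and intermediate in nitrate, Lce1m and Flg2 are highest in control, and Tchh, Tchhl1 and Crnn differ as much between libraries of 1 group as between groups.

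The 6 LCE3 genes, small cysteine-rich envelope proteins with antibacterial activity reported for human members, were almost silent in control skin and rose in bleomycin skin. Lce3c was at 0.577, 1.15 and 0.203 FPKM in control libraries 1, 2 and 3, 37.4, 17.1 and 19.8 in the bleomycin libraries and 5.48, 5.68 and 3.80 in the nitrate libraries. Lce3d was at 0.266, 0 and 0 FPKM in control libraries 1, 2 and 3, 46.9, 12.0 and 14.4 in the bleomycin libraries and 3.55, 1.78 and 2.25 in the nitrate libraries. In both genes the groups were ordered control, nitrate, bleomycin with no overlap, and bleomycin library 1 was the highest of the 9. The difference between bleomycin and control was 3.93 ± 0.31 (adjusted p = 0.00177) for Lce3c and 4.30 ± 0.45 (adjusted p = 0.00387) for Lce3d. Lce3e was at 0, 0.588 and 0.0948 FPKM in control libraries 1, 2 and 3, 34.8, 8.37 and 10.2 in the bleomycin libraries and 3.50, 2.52 and 0.173 in the nitrate libraries. Its nitrate library 3 fell among the control libraries, and all bleomycin libraries lay above both other groups, with a difference to control of 3.69 ± 0.61 (adjusted p = 0.0120).

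Lce3a, Lce3b and Lce3f had 0 reads in all control libraries. Lce3f was at 13.1, 5.196 and 5.01 FPKM in bleomycin and 0.803, 4.11 and 0.860 in nitrate libraries 1, 2 and 3. Lce3a was at 15.1, 3.26 and 2.89 FPKM in bleomycin and 0.199, 0.895 and 0.670 in nitrate. Lce3b was at 14.4, 4.72 and 1.82 FPKM in bleomycin and 0.0970, 0.583 and 0.748 in nitrate. None of these 3 genes had a nitrate library that reached the lowest bleomycin library. Set against the 3 reads per library that a count of 0 allows, mean FPKM in bleomycin was at least 21.3-fold higher than in control for Lce3a, at least 21.5-fold for Lce3b and at least 26.0-fold for Lce3f. Bleomycin library 1 carried much of these bounds, which without it were 9.26-fold for Lce3a, 10.1-fold for Lce3b and 17.1-fold for Lce3f. Their adjusted p was 0.0165, 0.0211 and 0.00886. Lce3a and Lce3b entered the test through the bleomycin libraries alone, so their direction was fixed and their p-values add no support. The median difference over the 6 LCE3 genes, which includes Lce3a and Lce3b, was 3.35, or 3.16 with these 3 genes at their bound. The differences of Lce3c, Lce3d, Lce3e and Lce3f were 3.93, 4.30, 3.69 and 3.01.

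LCE3 values rest on few reads outside the bleomycin group. Control libraries had 0 to 11 reads per LCE3 gene, nitrate libraries 1 to 59 and bleomycin libraries 18 to 375. The genes also resemble each other: between 12.1% (Lce3b) and 49.3% (Lce3d) of the 50-base windows of an LCE3 transcript occur in another gene, with Lce3f or Lce3e the most frequent partner of Lce3a, Lce3c, Lce3d, Lce3e and Lce3f. How reads that map to several places were counted was not stated in the sources used here, so the split of reads among the 6 is uncertain. Their summed level was 0.298 to 1.74 FPKM in control, 50.6 to 161.6 in bleomycin and 8.50 to 15.6 in nitrate. The 6 genes lie side by side on the chromosome, from Lce3a to Lce3f.

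The 14 LCE1 genes encode late envelope proteins that are abundant in healthy epidermis, and they are described in 3 sets along the chromosome that were formed after their values had been seen. The 7 neighbouring genes from Lce1e to Lce1k ranged from 1.80 to 26.5 FPKM over the control libraries and from 8.97 to 109.4 over the bleomycin libraries. In 6 of the 7 the rise passed the test, where 4.74% of all genes tested were higher. In 7 of 7 every bleomycin library lay above every control library, where 18.4% of all genes did so. The 5 neighbouring genes from Lce1a1 to Lce1d were already at 27.8 to 122.8 FPKM in control, reached 40.2 to 206.3 in bleomycin, and 0 of 5 passed, with estimates from 0.25 to 1.04. Lce1l did not pass, with control values of 38.0, 31.5 and 47.7 FPKM and bleomycin values of 31.7, 22.5 and 50.8, which overlap.

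Lce1g had the largest estimate of the LCE1 genes, 2.98 ± 0.52 (adjusted p = 0.0144). Its values were 4.45, 1.80 and 4.10 FPKM in control libraries 1, 2 and 3, 39.3, 20.8 and 42.5 in the bleomycin libraries and 10.7, 44.5 and 35.5 in the nitrate libraries. All bleomycin and nitrate libraries lay above all control libraries, and nitrate library 1 was the lowest of the treated ones. Lce1e rose by 2.24 ± 0.36 (adjusted p = 0.0115). It was at 8.37, 6.86 and 13.8 FPKM in control libraries 1, 2 and 3, 48.5, 34.1 and 64.9 in the bleomycin libraries and 24.0, 54.3 and 44.9 in the nitrate libraries. Here too the control libraries were the 3 lowest. For the other genes of the run the difference was 2.06 ± 0.39 (adjusted p = 0.0189) for Lce1f, 1.95 ± 0.48 (adjusted p = 0.0438) for Lce1j, 1.80 ± 0.45 (adjusted p = 0.0467) for Lce1k and 1.62 ± 0.39 (adjusted p = 0.0405) for Lce1i, and the estimate for Lce1h, which missed the threshold, was 1.73 ± 0.45 (adjusted p = 0.0512). By contrast Lce1b, of the other run, was at 61.2, 55.7 and 84.5 FPKM in control libraries 1, 2 and 3, 87.2, 60.5 and 129.6 in the bleomycin libraries and 53.6, 108 and 118 in the nitrate libraries, so that the 3 groups overlapped. Lce1a1 was at 67.2, 71.8 and 123 FPKM in control libraries 1, 2 and 3, 151, 104 and 206 in the bleomycin libraries and 82.4, 180.5 and 187 in the nitrate libraries. Lce1a2 was at 79.9, 67.9 and 116 FPKM in control libraries 1, 2 and 3, 99.1, 68.3 and 158 in the bleomycin libraries and 69.4, 125 and 132 in the nitrate libraries. Lce1c was at 51.4, 51.4 and 72.8 FPKM in control libraries 1, 2 and 3, 89.7, 57.2 and 113 in the bleomycin libraries and 50.1, 110.2 and 92.9 in the nitrate libraries. In each of these 3 genes too, bleomycin library 2 and nitrate library 1 lay within or below the control range.

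Lce1m went the other way. It lies apart from the other LCE1 genes, between Crct1 and the filaggrin-type genes at chr3:93017810-93019060, and in control skin it was the most abundant LCE gene. It was at 294, 307 and 491 FPKM in control libraries 1, 2 and 3, 45.1, 66.3 and 143 in the bleomycin libraries and 124, 104 and 187 in the nitrate libraries. Every bleomycin and every nitrate library lay below every control library. Lce1m fell by 2.21 ± 0.42 on the log2 scale in bleomycin skin (adjusted p = 0.0187), and its mean there was 23.3% of the control mean. Of all LCE FPKM, Lce1m took 41.5, 46.4 and 45.9% in control libraries 1, 2 and 3, 4.24, 9.72 and 10.5% in bleomycin and 20.8, 8.91 and 16.3% in nitrate. The LCE3 genes together took 0.0278 to 0.263% in control, 3.98 to 15.2% in bleomycin and 0.739 to 2.29% in nitrate. The sum over all 21 LCE genes overlapped between the groups, at 661.7 to 1069.6 FPKM in control, 682.0 to 1361 in bleomycin and 595.9 to 1173 in nitrate, while the share of Lce1m did not overlap between control and either treated group. None of the 50-base windows of Lce1m occurs in another gene, while the other LCE1 genes share 9.12 to 27.1% of theirs, mostly with each other.

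**Figure D2:**
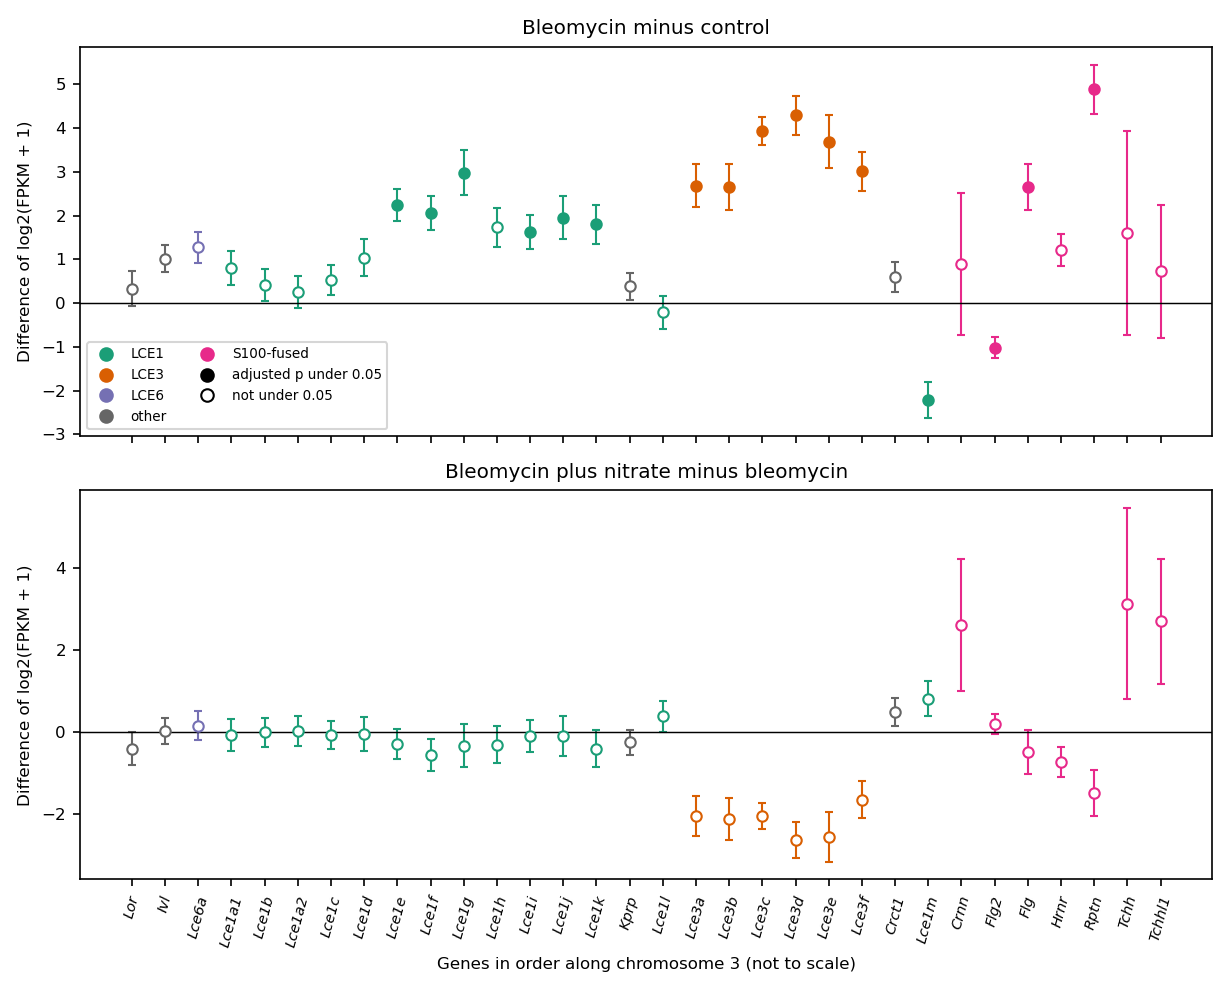
Difference of log2(FPKM + 1) between groups (y axis; bars are standard errors) for 32 tested genes in their order along chromosome 3 (x axis), coloured by type and filled where the adjusted p was under 0.05. In the upper panel Lce1e to Lce1k, except Lce1h, and all LCE3 genes are filled and above 0 while Lce1m and Flg2 are filled and below 0; in the lower panel no gene is filled, and the 6 LCE3 genes lie between -2.62 and -1.64.

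Lce6a, the single LCE6 gene, was at 9.46, 5.54 and 10.9 FPKM in control libraries 1, 2 and 3, 19.9, 18.7 and 26.9 in the bleomycin libraries and 13.6, 33.6 and 30.9 in the nitrate libraries. All bleomycin libraries lay above all control libraries, but the estimate of 1.27 ± 0.35 (adjusted p = 0.0621) missed the threshold. None of its 50-base windows occurs in another gene.

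Among the filaggrin-type genes, Rptn and Flg rose in bleomycin skin and Flg2 fell. Rptn, at chr3:93393699-93399442, encodes repetin, an envelope precursor known from follicles and the upper epidermis, and was at 2.63, 2.04 and 2.82 FPKM in control libraries 1, 2 and 3, 197, 82.0 and 65.9 in the bleomycin libraries and 26.4, 87.4 and 19.7 in the nitrate libraries. The control libraries were all below 3 FPKM and every treated library was several-fold above them. The difference between bleomycin and control was 4.89 ± 0.56 (adjusted p = 0.00439). The means (± SD, n = 3) were 2.496 ± 0.408 FPKM for control, 115 ± 71.5 for bleomycin and 44.5 ± 37.3 for nitrate skin.

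Flg, at chr3:93273523-93293686, encodes profilaggrin and was at 4.56, 2.91 and 6.37 FPKM in control libraries 1, 2 and 3, 53.1, 24.8 and 27.6 in the bleomycin libraries and 9.44, 45.8 and 28.9 in the nitrate libraries. All treated libraries lay above all control libraries, and the difference between bleomycin and control was 2.65 ± 0.54 (adjusted p = 0.0225). Flg2, at chr3:93197278-93221391, encodes a filaggrin-related protein that is also processed in the cornified layer, and was at 22.5, 18.5 and 34.6 FPKM in control libraries 1, 2 and 3, 10.4, 9.78 and 14.97 in the bleomycin libraries and 12.6, 12.1 and 16.0 in the nitrate libraries. Here all treated libraries lay below all control libraries, and Flg2 fell by 1.02 ± 0.24 on the log2 scale (adjusted p = 0.0390). The ratio of Flg2 to Flg FPKM was thereby 4.94, 6.35 and 5.44 in control libraries 1, 2 and 3, 0.195, 0.394 and 0.543 in bleomycin and 1.34, 0.263 and 0.553 in nitrate. The order of the pair was reversed in every bleomycin library, and in nitrate library 1 Flg2 remained above Flg. Hrnr, which encodes the related hornerin, was at 14.0, 8.03 and 15.5 FPKM in control libraries 1, 2 and 3, 42.4, 20.6 and 28.9 in the bleomycin libraries and 12.8, 28.0 and 14.7 in the nitrate libraries. The bleomycin libraries lay above the control libraries while the nitrate libraries overlapped both, and the estimate against control was 1.22 ± 0.36 (adjusted p = 0.0765).

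Filaggrin-type transcripts are long and repetitive. Within its own transcript, 79.2% of the 50-base windows of Flg, 65.4% of those of Flg2 and 69.1% of those of Hrnr occur more than once, and 0% of them occur in another gene. How reads from such repeats were counted was not stated in the sources used here. The ratio of Flg2 to Flg and the order of the pair within a library are therefore uncertain. The processed pseudogene Rplp0-ps1 overlaps Flg on the same strand and was at 0.127 to 2.498 FPKM, and Gm37857 overlaps Rptn on the same strand and was at 0 to 1.59 FPKM, in both cases far below the larger gene.

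**Figure D3:**
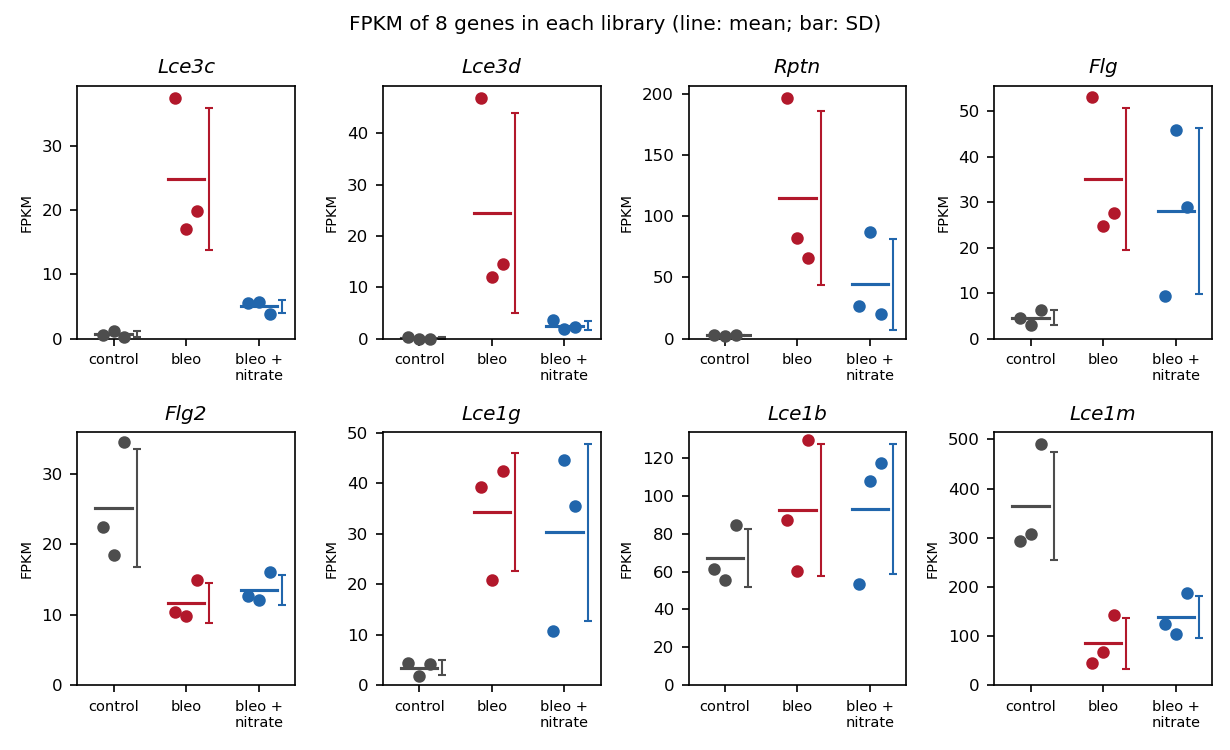
FPKM (y axis, linear, from 0) of 8 genes in each library (points), with the group mean (line) and SD (bar, n = 3) for control, bleomycin and bleomycin plus nitrate. Lce3c and Lce3d are lowest in control and highest in bleomycin with nitrate between, Rptn, Flg and Lce1g are lowest in control, Flg2 and Lce1m are highest in control, and the groups of Lce1b overlap.

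Tchh, Tchhl1 and Crnn differed widely between libraries of the same group. Tchh was at 0.550, 111 and 595 FPKM in control libraries 1, 2 and 3, 10.6, 349 and 722 in the bleomycin libraries and 1945, 434 and 2375 in the nitrate libraries. Control library 1 and bleomycin library 1 were the 2 lowest, and nitrate libraries 1 and 3 the 2 highest. Crnn, which encodes cornulin, a protein of stratified epithelia, was at 0, 7.56 and 40.5 FPKM in control libraries 1, 2 and 3, 0.888, 22.9 and 48.8 in the bleomycin libraries and 117, 26.9 and 159 in the nitrate libraries. Tchhl1, a relative of trichohyalin, was at 0, 5.67 and 39.3 FPKM in control libraries 1, 2 and 3, 0.742, 22.0 and 29.1 in the bleomycin libraries and 81.1, 28.2 and 139 in the nitrate libraries. Ranked from lowest to highest, the 9 libraries stood in the same order for Tchh and Crnn as for the mean of 8 keratins of the inner root sheath, and Tchhl1 matched that order in 7 of 9 places.

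Inner root sheath keratins are made during hair growth, and their summed level was 1.09 to 1685 FPKM in control, 35.3 to 3039 in bleomycin and 1448 to 9672 in nitrate. In control library 1, Krt25, Krt26, Krt27, Krt72 and Krt74 of that list were at 0. The 3 genes had estimates against control of 1.61 ± 2.33 (adjusted p = 0.696) for Tchh, 0.89 ± 1.62 (adjusted p = 0.760) for Crnn and 0.72 ± 1.53 (adjusted p = 0.793) for Tchhl1 in bleomycin. With control library 1 left out these became -0.85 for Tchh, -0.52 for Crnn and -0.62 for Tchhl1, and without bleomycin library 3 they were -0.0756 for Crnn and -0.0270 for Tchhl1. No direction between bleomycin and control can be given for these 3 genes from these libraries. Between nitrate and control the estimates were 4.75 ± 2.33 (adjusted p = 0.202) for Tchh, 3.51 ± 1.62 (adjusted p = 0.181) for Crnn and 3.43 ± 1.53 (adjusted p = 0.169) for Tchhl1. With the mean of the sheath keratins as a covariate, those of Tchh (-0.31) and Crnn (-0.0267) turned. The summed level of the mucosal keratins Krt4 and Krt13 stayed at 0.223 to 1.49 FPKM over the 9 libraries. For Rptn and Flg no such order was seen: bleomycin library 1, one of the 2 lowest in the sheath keratins, was the highest library of both.

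**Figure D4:**
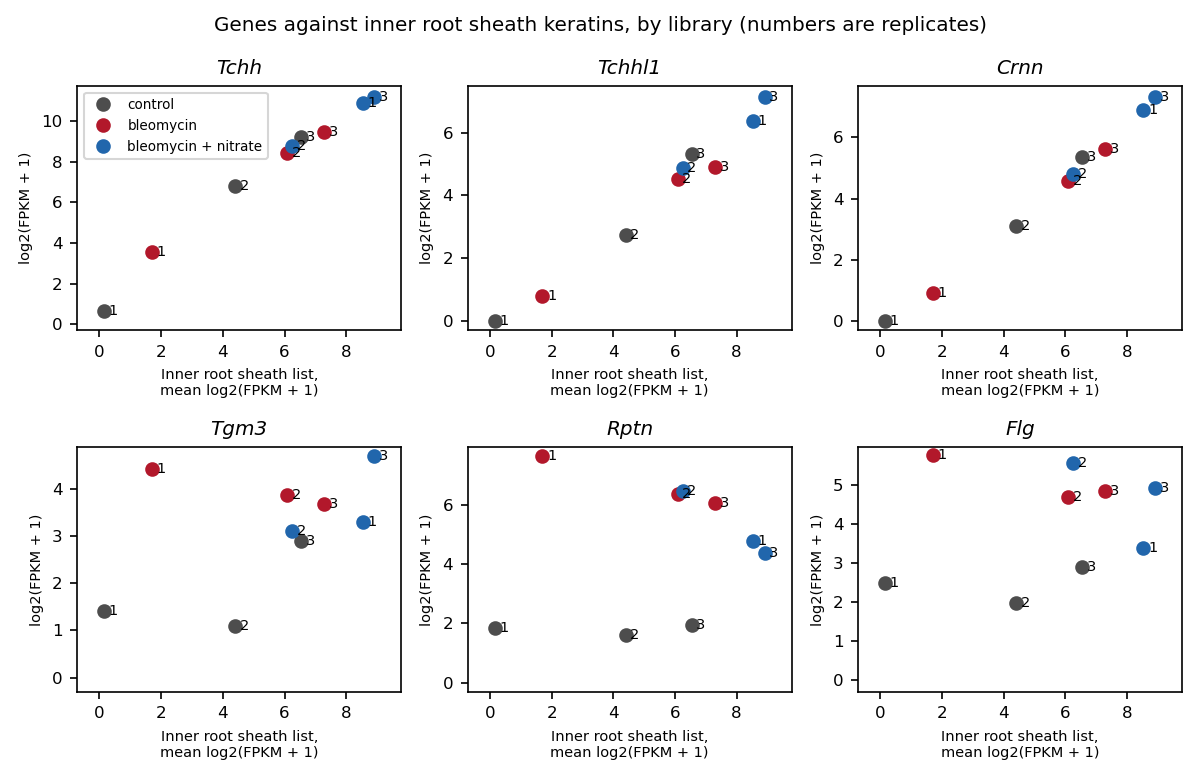
Level of 6 genes, as log2(FPKM + 1) (y axes), against the mean log2(FPKM + 1) of 8 inner root sheath keratins (x axes), 1 point per library, numbered by replicate and coloured by group. Tchh, Tchhl1 and Crnn rise with the sheath keratins across all groups, while the control libraries of Rptn and Flg are low at each of their positions on the x axis.

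Lor, Ivl, Crct1 and Kprp were present in every library and did not pass the test in bleomycin skin. Lor encodes loricrin, the main protein of the late envelope, and had the highest mean over the 9 libraries of the 38 genes, at 722, 578 and 953 FPKM in control libraries 1, 2 and 3, 1165, 541 and 1244 in the bleomycin libraries and 439, 1007 and 772 in the nitrate libraries. The groups overlapped widely. Ivl, which encodes involucrin of the early scaffold, was at 34.4, 27.2 and 55.5 FPKM in control libraries 1, 2 and 3, 82.9, 56.7 and 95.6 in the bleomycin libraries and 62.9, 72.2 and 106 in the nitrate libraries. Every bleomycin and nitrate library lay above every control library, with bleomycin library 2 just above control library 3, and the estimate was 1.02 ± 0.31 (adjusted p = 0.0821) in bleomycin. The ratio of Lor to Ivl FPKM was 17.2 to 21.3 in control, 9.54 to 14.1 in bleomycin and 6.98 to 13.9 in nitrate. Crct1, at 255, 221 and 423 FPKM in control, 443, 310.2 and 594 in bleomycin and 465, 584 and 849 in nitrate, overlapped between bleomycin and control. Kprp, a proline-rich keratinocyte protein, was at 48.3, 37.2 and 76.1 FPKM in control libraries 1, 2 and 3, 78.6, 46.9 and 83.1 in the bleomycin libraries and 50.4, 71.6 and 51.3 in the nitrate libraries, and the 3 groups overlapped.

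Of the enzymes that join the envelope, Tgm1 and Tgm3 rose in bleomycin skin. Tgm1, the membrane-bound form whose loss causes lamellar ichthyosis in humans, was at 10.8, 7.09 and 18.1 FPKM in control libraries 1, 2 and 3, 47.7, 27.1 and 34.4 in the bleomycin libraries and 32.3, 21.9 and 38.8 in the nitrate libraries. All treated libraries lay above all control libraries, with a difference of 1.58 ± 0.34 (adjusted p = 0.0293) in bleomycin. Tgm3, which acts in the epidermis and the hair follicle, was at 1.64, 1.15 and 6.47 FPKM in control libraries 1, 2 and 3, 20.5, 13.7 and 11.9 in the bleomycin libraries and 8.87, 7.67 and 25.1 in the nitrate libraries. Control library 3 was the highest control and the treated libraries lay above it, with a difference of 2.20 ± 0.54 (adjusted p = 0.0435) in bleomycin. Tgm5 was at 6.76, 7.79 and 8.22 FPKM in control and 12.7, 11.03 and 6.02 in bleomycin, and its bleomycin library 3 was below all controls. Evpl and Ppl encode envoplakin and periplakin, which tie the envelope to desmosomes and keratin filaments. Evpl was at 23.6, 15.9 and 35.6 FPKM in control libraries 1, 2 and 3, 43.3, 41.7 and 41.3 in the bleomycin libraries and 60.1, 41.6 and 60.1 in the nitrate libraries, with all bleomycin libraries above all controls and an estimate of 0.80 ± 0.26 (adjusted p = 0.102). Ppl was at 42.0, 33.4 and 59.3 FPKM in control libraries 1, 2 and 3, 47.6, 39.8 and 46.2 in the bleomycin libraries and 66.6, 58.8 and 68.0 in the nitrate libraries, and its bleomycin values lay within the control range.

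How far 1 library carries these calls was measured by leaving out each in turn. Lce3c, Lce3d and Rptn passed in all 17 alternatives run. Without control library 2, 5 of the 18 calls held (Lce3c, Lce3d, Lce3e, Lce3f and Rptn) and the other 13 had adjusted p of 0.0514 to 0.154 by limma. Without bleomycin library 1, 8 held and 10 had adjusted p of 0.0502 to 0.113. Without control library 1, 10 held and 8 were at 0.0586 to 0.112, and without bleomycin library 3, 10 held and 8 were at 0.0537 to 0.147. Without control library 3, 12 held and 6 were at 0.0504 to 0.127, and without bleomycin library 2, 13 held and 5 were at 0.0534 to 0.110. No called gene changed direction. The call of Lce1m was lost without control library 2, control library 3, bleomycin library 1 or bleomycin library 2, and its adjusted p over all alternatives was 0.00771 to 0.0937. The call of Flg2 held without bleomycin library 3 and was lost without any other of the 6 libraries, and its adjusted p was 0.0108 to 0.163. Several rises were as fragile. Lce1k lost its call without each of the 6 libraries, Tgm3 kept it only without control library 3, and Lce1i only without bleomycin library 2. Flg, Lce1j and Tgm1 kept theirs only without control library 3 or bleomycin library 2.

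Adding nitrate to bleomycin was compared with bleomycin alone, the contrast at which the study was aimed. Of the 37 genes, 0 passed the test by limma, and 0.0% of all genes tested did. At an unadjusted p under 0.05 there were 8, where 17.9% of all genes reached it, and voom on the recovered reads also called 0. The median difference was -0.09. The 8 were the 6 LCE3 genes, Ppl and Rptn.

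All 6 LCE3 genes had every nitrate library below every bleomycin library, where 11.8% of all genes did so. For Lce3a and Lce3b the filter fixed this order, since they had at least 1 FPKM in the bleomycin libraries alone, and 4 of 4 of the others showed it. The estimates of the 6 were -2.04 ± 0.31 (adjusted p = 0.0619) for Lce3c, -2.62 ± 0.45 (adjusted p = 0.0795) for Lce3d, -2.55 ± 0.61 (adjusted p = 0.123) for Lce3e, -2.05 ± 0.49 (adjusted p = 0.124) for Lce3a, -2.12 ± 0.52 (adjusted p = 0.126) for Lce3b and -1.64 ± 0.45 (adjusted p = 0.137) for Lce3f. The 95% interval for Lce3c was -2.76 to -1.33 and that for Lce3d -3.64 to -1.60. Over the alternatives, the adjusted p of Lce3c ranged over 0.0619 to 0.233 and that of Lce3d over 0.0505 to 0.249. Mean FPKM in bleomycin was 4.97 times that in nitrate for Lce3c, 9.67 times for Lce3d, 8.61 times for Lce3e and 4.03 times for Lce3f, and 12.0 and 14.7 times for Lce3a and Lce3b.

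Rptn had an estimate of -1.49 ± 0.56 (adjusted p = 0.218), and nitrate library 2 lay among the bleomycin libraries. Hrnr, Flg and Flg2 had estimates of -0.72 ± 0.36 (adjusted p = 0.342), -0.48 ± 0.54 (adjusted p = 0.679) and 0.21 ± 0.24 (adjusted p = 0.691). For Flg the 95% interval was -1.71 to 0.74. Lce1m had 0.82 ± 0.42 (adjusted p = 0.347), with bleomycin library 3 inside the nitrate range. In Ppl every nitrate library lay above every bleomycin library, where 9.4% of all genes did so, with an estimate of 0.53 ± 0.20 (adjusted p = 0.215). Tchh, Tchhl1 and Crnn had estimates of 3.14 ± 2.33 (adjusted p = 0.520), 2.71 ± 1.53 (adjusted p = 0.403) and 2.62 ± 1.62 (adjusted p = 0.438), with standard errors that follow from the spread within groups described above. The other 22 genes, among them 13 of the 14 LCE1 genes, had estimates of -0.56 to 0.50, 95% intervals within -1.53 to 1.27 and adjusted p of 0.476 to 0.996.

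The nitrate group was also compared with control skin, which shares its libraries with the comparison of bleomycin and control. Of the 37 genes 9 were higher and 0 were lower, where 3.63% and 4.9% of all genes were, or 8.53% in either direction. These 9 were Lce3c, Lce1e, Lce1g, Lce1i, Lce6a, Flg, Rptn, Tgm1 and Evpl. The median difference was 1.14, against 0.02 over all genes tested, and 1.13 with Lce3a, Lce3b and Lce3f at their bound.

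Rptn was 3.40 ± 0.56 (adjusted p = 0.0176) above control and Lce3c 1.89 ± 0.31 (adjusted p = 0.0176). Lce1g and Lce1e were higher by 2.65 ± 0.52 (adjusted p = 0.0265) and 1.95 ± 0.36 (adjusted p = 0.0229), and Flg by 2.17 ± 0.54 (adjusted p = 0.0450). Lce6a and Evpl, which had missed the threshold in bleomycin skin, passed here with 1.43 ± 0.35 (adjusted p = 0.0450) and 1.13 ± 0.26 (adjusted p = 0.0389). Tgm1 was higher by 1.35 ± 0.34 (adjusted p = 0.0480) and Lce1i by 1.54 ± 0.39 (adjusted p = 0.0484). In 5 of the 6 LCE3 genes every nitrate library lay above every control library, where 17.3% of all genes did so, and Lce3d missed the threshold with 1.67 ± 0.45 (adjusted p = 0.0539). For Lce3a, Lce3b and Lce3f the control libraries had 0 reads, so 1 read per nitrate library was enough for this order. Nitrate library 1 had 2 reads of Lce3a and 1 of Lce3b, below the 3 reads that a count of 0 allows. Lce1m and Flg2 lay below control in every nitrate library, where 17.5% of all genes did so, with estimates of -1.39 ± 0.42 (adjusted p = 0.0711) and -0.81 ± 0.24 (adjusted p = 0.0704). Without control library 1 or control library 2, 0 of the 9 calls held, with adjusted p of 0.0606 to 0.127 and 0.0569 to 0.167. Without nitrate library 3, only Lce3c and Rptn held, and the other 7 were at 0.0790 to 0.151.

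The proteins that work with the envelope were read from a list of 30 partners and regulators of cornification. In bleomycin skin 13 of 30 were higher and 0 lower, where 4.74% and 3.69% of all genes tested were. The median difference was 0.86. Those with the smallest p were Blmh, bleomycin hydrolase, which helps to break down filaggrin peptides and inactivates bleomycin, at 1.25 ± 0.18 (adjusted p = 0.00886), Casp14, a protease that acts on filaggrin, at 2.94 ± 0.44 (adjusted p = 0.00895), Klk7, a protease of skin shedding, at 1.45 ± 0.24 (adjusted p = 0.0117), and Cnfn, cornifelin of the envelope, at 2.55 ± 0.42 (adjusted p = 0.0118). Casp14 was at 15.4, 7.73 and 15.3 FPKM in control libraries 1, 2 and 3, 155, 76.7 and 84.8 in the bleomycin libraries and 30.6, 73.6 and 85.2 in the nitrate libraries. Every treated library lay above every control library, as for Flg. Between nitrate and bleomycin 0 of 30 passed, with a median of -0.17. Between nitrate and control 11 of 30 were higher and 0 lower, where 3.63% and 4.9% of all genes tested were. Among the 11 were Cst6, a protease inhibitor of the cornified layer, at 1.82 ± 0.18 (adjusted p = 0.00761), Calml3 at 1.61 ± 0.27 (adjusted p = 0.0180) and Prss8, a barrier protease, at 1.39 ± 0.25 (adjusted p = 0.0214).

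The small proline-rich genes, neighbours in the same complex that encode cross-bridging envelope proteins, had 12 of 14 tested genes higher in bleomycin skin and 0 lower. Over all genes tested, 4.74% were higher and 3.69% were lower. The median difference of the 14 was 3.79. Between nitrate and bleomycin 0 of 14 passed, with a median of -2.88 and with 12 estimates below 0 and 2 above. Sprr1a and Sprr4 had means of 590 and 304 FPKM in bleomycin and 1003 and 646 in nitrate. Every nitrate library of Sprr4 lay above every bleomycin library, where 9.4% of all genes did so. The summed level of the list overlapped, at 1258 to 1949 FPKM in bleomycin and 1164 to 2043 in nitrate. Between nitrate and control 3 of 14 were higher, where 3.63% of all genes tested were. Sprr2e, Sprr2f and Sprr2j-ps reached 1 FPKM in the bleomycin libraries alone, which fixed their direction in the comparisons with bleomycin. Without them 10 of 11 were higher in bleomycin skin, with medians of 4.04 against control and -3.04 between nitrate and bleomycin. Sprr2a1 was at 1.20, 0.158 and 0.919 FPKM in control libraries 1, 2 and 3, 35.7, 28.1 and 19.3 in the bleomycin libraries and 4.35, 1.82 and 0.735 in the nitrate libraries. As for Lce3c, its bleomycin libraries lay above all others.

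Other keratinocyte genes moved in the same libraries. All 4 stress keratins of the list, Krt6a, Krt6b, Krt16 and Krt17, were higher in bleomycin skin, where 4.74% of all genes tested were. Their summed level was 194.8 to 350.5 FPKM in control, 1250 to 4113 in bleomycin and 808.5 to 1833 in nitrate. Of 4 suprabasal keratins Krt1 was higher at 2.48 ± 0.57 (adjusted p = 0.0353), Krt10 was at 0.78 ± 0.46 (adjusted p = 0.317) and Krt2 at 0.77 ± 0.42 (adjusted p = 0.283). Krt77 had the opposite sign, at -1.44 ± 0.50 (adjusted p = 0.114) in bleomycin, and was lower in nitrate than in control at -2.00 ± 0.50 (adjusted p = 0.0466). It was at 785, 564 and 975.5 FPKM in control libraries 1, 2 and 3, 184, 234 and 494 in the bleomycin libraries and 367, 104 and 173 in the nitrate libraries, so that every treated library lay below every control library, as for Lce1m and Flg2. Of 6 fibroblast markers 3 were lower in bleomycin skin, where 3.69% of all genes tested were. The summed level of the fibroblast markers was 4579 to 5821 FPKM in control and 1584 to 2471 in bleomycin. Of 9 mitochondrially encoded genes 6 were lower, where 3.69% of all genes tested were. Of 6 leukocyte markers 4 were tested, and Csf3r was higher at 1.72 ± 0.35 (adjusted p = 0.0231). The summed level of the leukocyte markers was 29.6 to 73.8 FPKM in control, 72.8 to 97.1 in bleomycin and 24.1 to 53.5 in nitrate. In 4 of 4 every nitrate library lay below every bleomycin library, where 11.8% of all genes did so, and 0 passed. Of 9 immediate early genes, which respond to stress and to handling of tissue, 3 were higher in bleomycin skin, where 4.74% of all genes tested were. For them 9 of 9 estimates were above 0, with a median of 1.40, against 0.01 over all genes tested. Their summed level was 206.1 to 246.7 FPKM in control, 342.1 to 1113 in bleomycin and 318.9 to 336.7 in nitrate. All 6 skeletal muscle, 5 fat cell and 3 endothelium markers had estimates below 0 in bleomycin skin, and 0 passed. Their medians were -1.38, -0.81 and -0.50, against 0.01 over all genes tested. The summed level of the muscle markers was 11931.5 to 17273 FPKM in control and 2492 to 11035 in bleomycin. Of 7 basal epidermis markers 1 was higher and 1 lower, where 4.74% and 3.69% of all genes tested were. The part of a larger epidermal share of the biopsy, of leukocytes or of the immediate early response in the differences of the LCE, Flg and Tgm genes was not tested.

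With the mean of the suprabasal keratins as a covariate, the 18 genes called in bleomycin skin kept their sign and 4 passed, all higher: Lce1e at 1.60, Lce3c at 3.88, Lce3d at 4.05 and Rptn at 4.22. The estimates of the other LCE3 genes were 2.25 for Lce3a, 2.48 for Lce3b, 3.47 for Lce3e and 2.47 for Lce3f, and those of Lce1m and Flg2 were -2.32 and -1.28. Those of Lce1f, Lce1g, Lce1i, Lce1j and Lce1k ranged from 0.93 to 2.05, Flg was at 1.80, Tgm1 at 1.25 and Tgm3 at 1.89. The adjusted p by limma of the 14 genes that no longer passed was 0.0570 to 0.210. This covariate is the mean of log2(FPKM + 1) over Krt1, Krt10, Krt2 and Krt77. Krt1 rose in bleomycin skin, Krt77 had the opposite sign, and Krt2 was at 0.364 to 3.59 FPKM over the 9 libraries. The covariate therefore does not measure the epidermal share of the biopsy, and the part of that share was not tested.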

How the data were processed

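The authors deposited 1 table of FPKM values for 54532 genes and 9 libraries, with coordinates and gene lengths. Per the labels' protocols, total RNA was made into mRNA libraries with a SMARTer kit, and per the submitters' processing notes the build was mm10. The aligner, the counter and the treatment of reads that map to several places are not given in the sources used here. In every library, FPKM times gene length came in steps of 1 read, giving whole reads within 0.01 for at least 99.9% of values. A count of 0 allows up to 3 reads, by counting error alone.

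Groups were taken from the sample titles. Genes with at least 1 FPKM in at least 3 of 9 libraries were tested as log2(FPKM + 1) with limma 3.58.1 under R 4.3.3. A single fit held all 3 group means, with moderated variances (trend and robust) and two-sided tests, and Benjamini-Hochberg adjustment over 14645 genes per comparison. The count test planned for a table of counts was replaced by this one, since the table holds FPKM. The genes and lists were chosen with earlier results of these data known, and so support nothing by their direction. Every member was accounted for, with values per library for the LCE3 genes and up to 5 members of each other role group with the highest mean FPKM, and of partner lists up to 4 genes with the smallest p per comparison. Flg2, Hrnr, Lce1e, Lce1g and Lce1l were added after their values were seen.

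Alternatives were a pseudocount of 0.1, other filters and scalings, the groups compared alone, the replicate number as a block, voom on the recovered reads and leaving out each library. Transcript windows of 50 bases were compared across GENCODE M21, and upstream windows came from RefSeq (GRCm38.p6). The tests were tried on simulated data. Plots were made in Python 3.11.15 (matplotlib 3.10.9).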

Additional observations from a re-analysis of the deposited data

How the results depend on the processing

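The count of members called in bleomycin against control, 18, went to 11 with no filter on low values, and leaving out each library gave 5 to 13. In nitrate against control the count of 9 went to 2 with no filter, 3 with only the groups compared in the fit and 5 with voom on the recovered reads, and leaving out each library gave 0 to 10. In nitrate against bleomycin it was 0 in every alternative run. The labels do not say whether libraries of the same replicate number belong together. In bleomycin against control, same-numbered deviations correlated at 0.517, -0.0447 and 0.434, and those of different numbers at -0.568 to 0.334. In nitrate against bleomycin the same-numbered values were -0.205, -0.391 and 0.344, and in nitrate against control 0.0131, 0.199 and 0.443. These values do not settle whether the libraries are paired. A fit with the replicate number as a block called 15, 0 and 11 in bleomycin against control, nitrate against bleomycin and nitrate against control. Added after the data were seen, leaving out both control library 1 and bleomycin library 1 gave 4 and 0 calls against control for bleomycin and nitrate, the suprabasal keratin covariate gave 4 in bleomycin and 9 in nitrate, and the inner root sheath covariate 14 and 0. Estimates against control in bleomycin turned without control library 1 for Tchh (-0.85), Tchhl1 (-0.62) and Crnn (-0.52), without bleomycin library 3 for Tchhl1 (-0.0270) and Crnn (-0.0756), and with the sheath covariate for Tchhl1 (-0.33) and Crnn (-0.23). With that covariate Tchh turned in nitrate against bleomycin (-0.32) and against control (-0.31), and Crnn against control (-0.0267). Flg in nitrate against bleomycin turned without nitrate library 1 (0.13) and with the suprabasal covariate (0.19). Leaving out each library gave -0.85 to 3.44 for Tchh, -0.62 to 2.04 for Tchhl1 and -0.52 to 2.29 for Crnn in bleomycin against control, and -0.95 to 0.13 for Flg in nitrate against bleomycin. Of 946 results under alternatives for the genes whose estimates are given above, 746 kept direction and side of the threshold, 176 lost the call, 12 gained it and 12 turned; over all members 29 calls were gained, and 0 called genes changed sign. With no filter more genes are tested, and leaving out libraries leaves fewer samples. The causes of the changed calls were not tested. Depth limits the LCE3 values in control and nitrate.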
